A study of Homo sapiens with 6 samples.

Results

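Expression of 8 cell death genes was described in SiHa cells that carried extra BRCA1. The genes are the caspases CASP1, CASP4, CASP6, CASP8 and CASP10, the pore former GSDMD, the kinase RIPK1 and the necroptosis effector MLKL, taken by name from 58174 genes. SiHa is an established human line of cervical squamous carcinoma origin. In the OV-BRCA1 group (n = 3) the cells were transfected with the plasmid GV230-BRCA1, and in the NC group (n = 3) with GV230 lacking an insert. Both groups were harvested for mRNA sequencing 48 h later, and each was described by the study as biological replicates. The unit is FPKM, the fragments of a transcript scaled to its length and to the mapped fragments of the sample, summed over the transcripts of each gene, so levels of different genes can be set side by side. The values are not counts, so the fragments behind each value were not known. All 8 genes passed the filter on low values, which kept 16321 genes. No sorting of transfected cells is described by the study, and their share is not given. A change in every cell and a change in a share of the cells thus cannot be told apart.

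Caspases are proteases that cut proteins after aspartate and are made as inactive precursors. The inflammatory caspases CASP1 and CASP4 cut gasdermin D, and the released fragment opens pores in the plasma membrane (pyroptosis), while CASP8 and CASP10 are recruited to death receptors through FADD and start apoptosis. When CASP8 is not active, RIPK1 and RIPK3 can pass the signal to MLKL, which breaches the membrane (necroptosis). The values below are transcript levels, and cleavage, phosphorylation and cell death were not measured.

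BRCA1, the gene on the plasmid, was measured first as a check of the labels. Its FPKM was 35.7, 40.8 and 34.9 in OV-BRCA1 samples 1 to 3 and 20.1, 14.9 and 21.7 in NC samples 1 to 3. All OV-BRCA1 samples lay above all NC samples, and the log2 fold change was 0.95 (SE 0.14, limma adjusted p = 0.00373). GAPDH, a glycolytic enzyme often used as a reference, averaged 2896 ± 95.1 FPKM in OV-BRCA1 and 2832 ± 72.0 in NC (SD, n = 3), with overlapping groups. Of 12 epithelial markers, KRT7 was the most abundant (1544 to 1732 FPKM), and KRT8, KRT17, KRT18 and SFN were also high, but KRT5, KRT14, TP63 and CDH1, which mark basal squamous epithelium or epithelial junctions, stayed below 1 FPKM in every sample.

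Both inflammatory caspases rose with the BRCA1 plasmid. CASP1, the protease of inflammasomes that also matures IL1B and IL18, had 60.7, 59.4 and 59.6 FPKM in OV-BRCA1 samples 1 to 3 against 23.6, 26.0 and 24.3 in NC samples 1 to 3. The groups were far apart and each was tight. The mean was 59.9 ± 0.71 in OV-BRCA1 and 24.6 ± 1.27 in NC (SD, n = 3), 2.43 times as high, with a log2 fold change of 1.25 (SE 0.054, limma adjusted p = 2.75e-05). CASP4, which binds bacterial lipopolysaccharide inside the cell, had 102, 105 and 107 FPKM in the OV-BRCA1 samples and 56.4, 58.1 and 58.0 in the NC samples. No sample overlapped, and by the sum over all transcripts CASP4 was the most abundant of the 8 genes in both groups. Protein-coding transcripts alone averaged 31.5 FPKM for CASP4 against 52.8 for CASP1 in OV-BRCA1, and 14.7 against 20.5 in NC. The log2 fold change of CASP4 was 0.85 (SE 0.043, limma adjusted p = 4.95e-05), a ratio of means of 1.82. Fold changes throughout are on the scale of log2(FPKM + 1), which understates changes of low genes.

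GSDMD (chr8:143553207-143563062, plus strand), the substrate of both enzymes, had 32.3, 43.7 and 40.7 FPKM in OV-BRCA1 samples 1 to 3 and 27.7, 28.8 and 27.9 in NC samples 1 to 3. The groups did not overlap, but OV-BRCA1 sample 1 lay near the NC samples and the spread in OV-BRCA1 (SD 5.9) was wider than in NC (SD 0.58). The log2 fold change was 0.44 (SE 0.11, limma adjusted p = 0.0244). The transcript GSDMD-204, a short protein-coding form, had 1.27, 16.98 and 0 FPKM in OV-BRCA1 samples 1 to 3 and was listed at 0 in every NC sample. Without it, GSDMD came to 31.0, 26.7 and 40.7 FPKM against 27.7, 28.8 and 27.9, so the groups overlapped and the log2 fold change was 0.19 (adjusted p = 0.342). Leaving out any of 5 samples (OV-BRCA1 2 or 3, or NC 1, 2 or 3) also ended the call, with log2 fold changes of 0.36 to 0.46 and fewer samples in the fit (adjusted p between 0.057 and 0.0755). Without OV-BRCA1 1 it was 0.57 (adjusted p = 0.00329), and over all 16 alternatives the adjusted p ran from 0.00329 to 0.575.

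MLKL, the effector of necroptosis, had 21.5, 25.8 and 26.1 FPKM in OV-BRCA1 samples 1 to 3 and 11.5, 10.9 and 10.9 in NC samples 1 to 3. Every OV-BRCA1 sample was above every NC sample, with OV-BRCA1 sample 1 the lowest of its group. The mean was 24.5 ± 2.59 against 11.1 ± 0.34 FPKM (SD, n = 3), 2.21 times as high, and the log2 fold change was 1.07 (SE 0.088, limma adjusted p = 0.000364). RIPK1, the kinase upstream, had 10.7, 10.9 and 11.1 FPKM against 11.004, 9.22 and 10.5. The groups overlapped, and the log2 fold change of 0.09 had a 95% interval of -0.10 to 0.28 (adjusted p = 0.42).

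The death receptor caspases did not pass the test. CASP8 had 30.7, 28.6 and 23.5 FPKM in OV-BRCA1 samples 1 to 3 and 24.4, 17.5 and 27.5 in NC samples 1 to 3. The groups overlapped, NC sample 2 was the lowest of all, and the log2 fold change of 0.26 had a 95% interval of -0.17 to 0.69 (limma adjusted p = 0.307). CASP10, the neighbouring gene with a similar role, ranged from 3.32 to 3.77 FPKM in OV-BRCA1 and from 2.19 to 3.47 in NC. Its log2 fold change was 0.22, with a 95% interval of -0.11 to 0.55 (adjusted p = 0.261). Without NC sample 2 the log2 fold changes were 0.08 for CASP8 and 0.09 for CASP10. The intervals above leave room for changes in either direction.

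CASP6, an executioner caspase that cuts lamin A, was lower in OV-BRCA1. Its FPKM was 8.11, 8.36 and 9.64 in OV-BRCA1 samples 1 to 3 and 15.4, 13.8 and 14.2 in NC samples 1 to 3. The groups were separate, and the mean was 39.99% lower in OV-BRCA1. The log2 fold change was -0.68 (SE 0.085, limma adjusted p = 0.00186). With protein-coding transcripts alone the groups overlapped and the call was lost (log2 fold change -0.41, adjusted p = 0.113, range over 15 alternatives 0.000634 to 0.113).

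**Figure D1:**
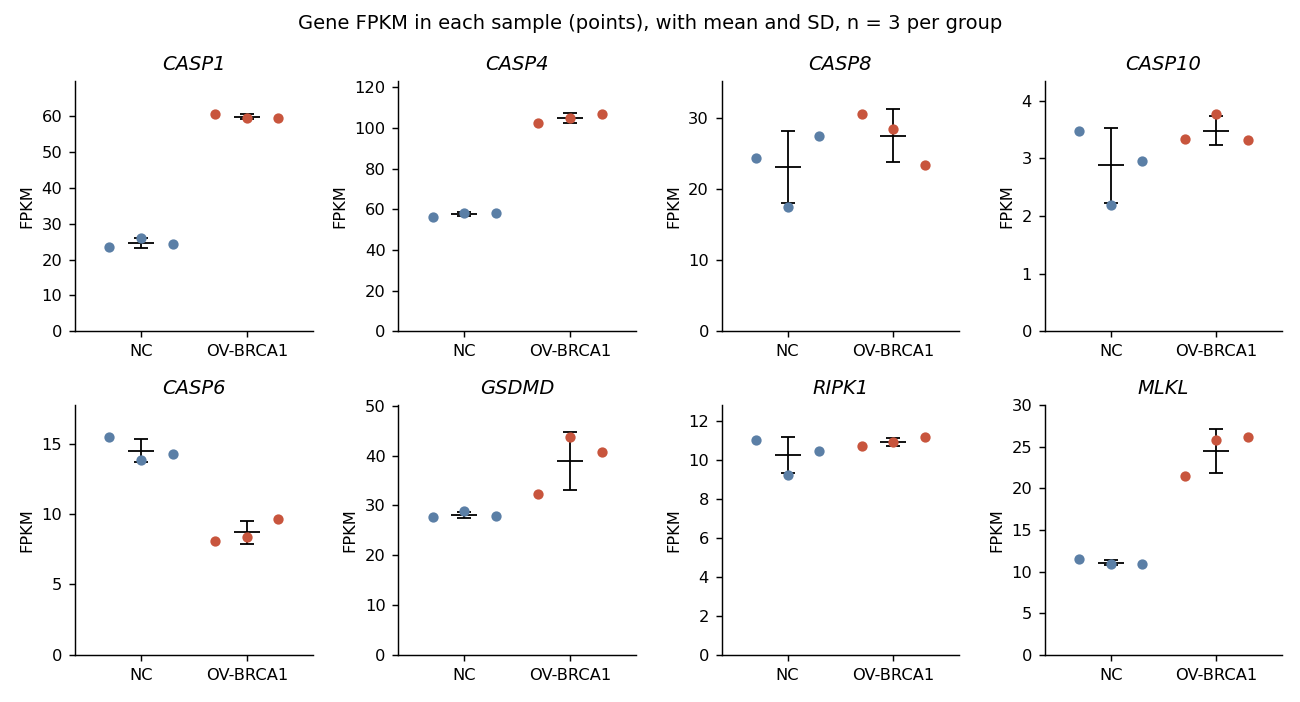
FPKM of the 8 genes in each sample (y axis, linear from 0; points), by group on the x axis, with the mean as a bar and the SD as whiskers (n = 3). CASP1, CASP4 and MLKL show separate groups with OV-BRCA1 higher, CASP6 separate groups with OV-BRCA1 lower, and CASP8, CASP10 and RIPK1 overlapping groups.

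Of the 8 genes, 4 passed an adjusted p of 0.05 with higher values (CASP1, CASP4, GSDMD and MLKL) and 1 with lower values (CASP6). Over all genes tested, 16.4% were higher and 18.9% lower by the same rule. CASP1 and MLKL also passed an absolute log2 fold change of 1, the limit used in the study, which 2.89% of genes passed with higher and 1.1% with lower values. Groups did not overlap for the same 5 genes, 4 higher and 1 lower, against 23.4% and 27.4% of all genes. The 8 genes gave a median log2 fold change of 0.35, beside -0.04 over all genes tested. They were chosen with earlier results of these data known, so nothing is read from these shares or this median. In NC the order of mean levels was CASP4 (57.5 FPKM), GSDMD (28.1), CASP1 (24.6), CASP8 (23.1), CASP6 (14.5), MLKL (11.1), RIPK1 (10.2) and CASP10 (2.87). The NC samples of CASP1 and CASP8 overlapped, as did those of MLKL and RIPK1. This order is of sums over all transcripts. With protein-coding transcripts alone, CASP1 (20.5 FPKM in NC) lay above GSDMD (17.0) and CASP4 (14.7).

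The most similar profiles to CASP1 among 14017 genes, by root-mean-square distance of the 6 values of log2(FPKM + 1) centred on the NC mean, were IGFBP6 (0.044), TXNIP (0.045) and TRIM14 (0.049). For MLKL they were RERE (0.043), PDIA3P2 (0.058) and DUSP7 (0.062).

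The genes have different neighbours. CASP1 (chr11:105025443-105035250) and CASP4 (chr11:104942866-104969436) lie on the minus strand of GRCh38 in a cluster of 7 genes spanning 646 kb that also holds CASP12, CASP5, CARD16, CARD17 and CARD18. CARD16 and CARD17 encode little more than the recruitment domain that CASP1 carries at its start and lack a protease domain. CARD16 had 57.2, 49.5 and 50.02 FPKM in OV-BRCA1 samples 1 to 3 and 19.8, 17.5 and 20.4 in NC samples 1 to 3. Its groups were separate, with a log2 fold change of 1.40 (limma adjusted p = 0.000117). CARD17 had 5.41, 4.77 and 5.65 FPKM against 0.056, 0.12 and 0.063, a log2 fold change of 2.54. It passed the filter on low values only through the OV-BRCA1 samples, so its call is no support for a difference and its p is not given. CARD17 lies within the annotated bounds of CARD16 on the same strand. Of the stretches of 50 bases in its main transcript, 0.96% occur in other genes. CASP12, a pseudogene in most people, was listed at 0 in every sample, and CASP5 and CARD18 reached at most 0.16 FPKM. CASP1 and CARD16 are partly copies. Of the stretches of 50 bases in the main transcript, 6.2% for CASP1 and 20.9% for CARD16 occur in the other gene. Reads there could be assigned to either gene, and how far this shifts the values of both was not measured.

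CASP8 (chr2:201233443-201287711) and CASP10 (chr2:201182881-201229406) lie on the plus strand beside CFLAR, which encodes a protease-dead relative that competes with CASP8 at death receptors, within 171.6 kb. CFLAR measured 16.4, 15.8 and 17.0 FPKM in the OV-BRCA1 samples against 19.5, 17.6 and 22.4 in the NC samples. The groups did not overlap, but the gene missed the threshold (log2 fold change -0.26, adjusted p = 0.0775). None of the 3 genes of this cluster passed the test. In the cluster on chromosome 11, CASP1, CASP4 and CARD16 had a higher call, CARD17 is a description only, and CASP12, CASP5 and CARD18 were not tested. No test compared the clusters.

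**Figure D2:**
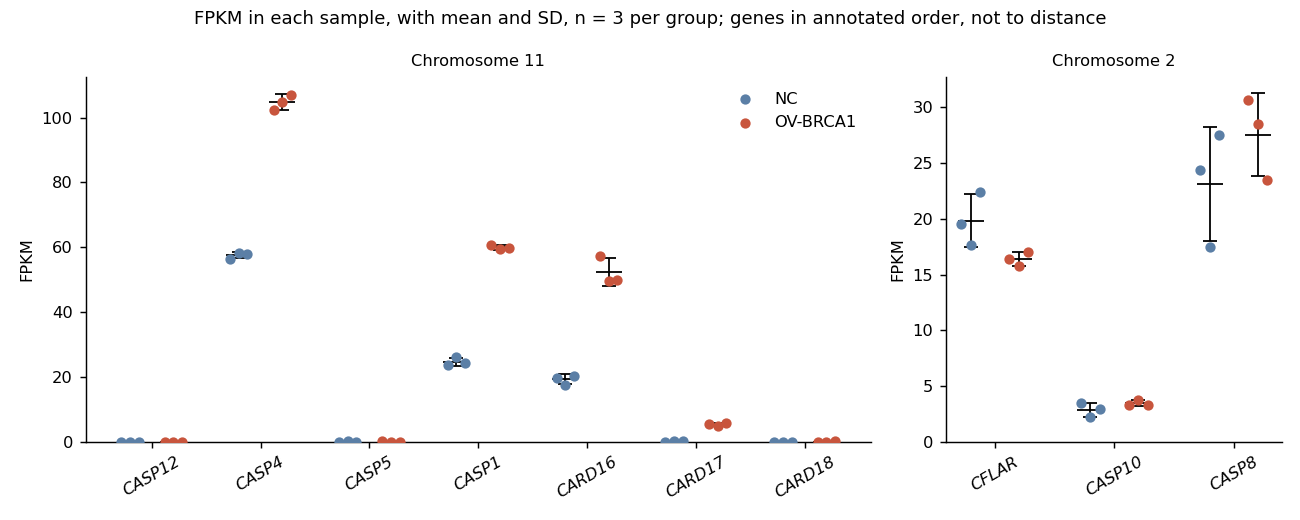
FPKM (y axis, linear from 0) of the caspase and CARD genes on chromosome 11 and of CFLAR, CASP10 and CASP8 on chromosome 2, in annotated order along the x axis, with each sample as a point and mean and SD as bars (n = 3). CASP4, CASP1, CARD16 and CARD17 are higher in OV-BRCA1, while the groups of CASP10 and CASP8 overlap.

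The remaining positions are MLKL at chr16:74671855-74700960 (minus), RIPK1 at chr6:3063991-3115187 (plus) and CASP6 at chr4:109688622-109703583 (minus). CASP1, CASP4, CASP8, GSDMD and MLKL overlap no other annotated gene. CASP6 shares 105 exonic bases with MCUB on the opposite strand, a regulator of mitochondrial calcium uptake with 38.8, 34.6 and 38.1 FPKM in OV-BRCA1 and 26.6, 28.3 and 31.4 in NC, and it also contains the antisense gene AC004067.1, which stayed below 1 FPKM. RIPK1 shares 238 exonic bases with the antisense gene AL031963.3, which had 2.92, 2.48 and 3.44 FPKM in OV-BRCA1 and 5.67, 5.10 and 6.48 in NC. Whether strand was used in counting is not given in the sources used here, so reads in these shared stretches cannot be told apart, and the values of CASP6 and RIPK1 are uncertain there. RNA5SP201 within RIPK1 and MTND5P25, MTND4P23 and MTND4LP13 within CASP10 did not exceed 0.35 FPKM.

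Promoter windows in the RefSeq table (GRCh38.p14, 250 bases before to 50 bases after a gene start) were found for 5 of the 8 genes, CASP4, CASP6, CASP8, MLKL and RIPK1, with 9 windows in all. Interferon-responsive promoters often carry 2 short elements, so both were searched on both strands. GAAANNGAA, the core of the interferon-stimulated response element, occurs in 8.11% of 35116 windows of this length, and TTCNNNGAA, the gamma-activated site, in 7.66%. CASP8 held both in its first window, RIPK1 held the former in a pair of overlapping windows at the same place, and CASP4, CASP6 and MLKL held neither. The 250 bases before the start lie wholly in an annotated exon for CASP4 (of CASP4 itself) and for both of those RIPK1 windows (of the antisense AL031963.3). A match is a description of letters, and its absence says only that they are not in the window. The stretches that end at the last base before the annotated gene start are shown for MLKL, which rose, and for CASP8, which did not pass the test, with the match to TTCNNNGAA in capitals.
MLKL, minus strand, chr16:74700961-74701112: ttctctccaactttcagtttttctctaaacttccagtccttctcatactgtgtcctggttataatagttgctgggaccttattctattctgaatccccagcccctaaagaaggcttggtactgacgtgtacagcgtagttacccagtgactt
CASP8, plus strand, chr2:201233243-201233442: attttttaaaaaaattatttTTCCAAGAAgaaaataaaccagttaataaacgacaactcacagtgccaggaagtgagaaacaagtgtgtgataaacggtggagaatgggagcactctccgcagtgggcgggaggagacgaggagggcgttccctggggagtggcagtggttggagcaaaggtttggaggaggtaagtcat

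Transcript types differed between the genes. The protein-coding transcripts of CASP1 carried 88.1% of its FPKM in OV-BRCA1 and 83.4% in NC, and those of MLKL 88.6% and 86.5%. The main transcript CASP1-215 had 35.1, 36.2 and 33.9 FPKM in OV-BRCA1 and 13.0, 12.8 and 14.5 in NC, and MLKL-202 had 16.7, 21.3 and 21.8 against 9.06, 7.94 and 7.73. For CASP1 and MLKL the difference was therefore in the annotated coding form. In CASP4, by contrast, transcripts annotated with a retained intron carried 61.1% of the FPKM in OV-BRCA1 and 69.1% in NC. The retained-intron transcript CASP4-212 had 48.1, 51.9 and 48.0 FPKM against 30.3, 21.5 and 27.6, and the coding transcript CASP4-201 had 30.8, 29.3 and 33.97 against 10.1, 18.9 and 14.1. Both forms were separate between the groups.

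In CASP6 the protein-coding transcripts made up 24.3% of the value in OV-BRCA1 and 21.7% in NC. CASP6-208, a processed transcript, and CASP6-206, with a retained intron, together had 5.55, 6.01 and 6.53 FPKM in OV-BRCA1 and 12.0, 9.35 and 10.6 in NC. Much of the CASP6 difference thus sat in forms not annotated as coding. The coding transcript CASP6-201 had 1.91, 1.63 and 1.35 FPKM against 2.23, 2.39 and 2.22, which were separate groups too, but the sum of all 4 coding transcripts overlapped.

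CASP8 has 20 annotated transcripts, and the form that received most of the value changed from sample to sample. CASP8-205 had 14.1, 13.3 and 0.023 FPKM in OV-BRCA1 samples 1 to 3 and 10.0, 0.069 and 0.033 in NC samples 1 to 3. CASP8-203 reached 10.4 FPKM only in OV-BRCA1 sample 3, and CASP8-201 reached 12.2 FPKM only in NC sample 3. The 3 forms together had 15.2, 14.6 and 11.3 FPKM against 11.1, 1.65 and 12.2, so in NC sample 2 none of them received a high value. The retained-intron form CASP8-204 had 3.39, 2.96 and 4.57 FPKM against 5.02, 8.25 and 6.07, with OV-BRCA1 lower in every sample. For RIPK1 a similar exchange was seen between RIPK1-202 and RIPK1-201, where OV-BRCA1 sample 2 and NC sample 3 had 0.072 and 0.31 FPKM of RIPK1-201 and the other samples 3.23 to 4.12.

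**Figure D3:**
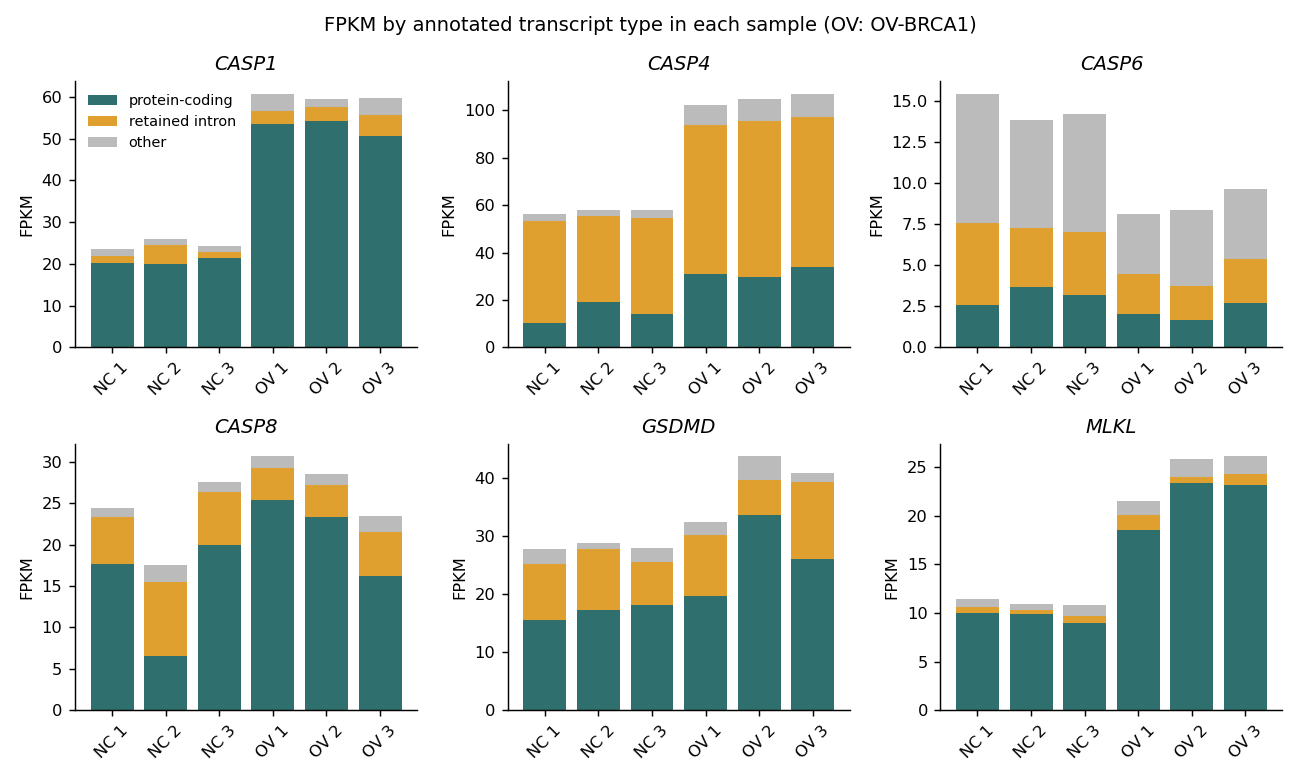
FPKM (y axis, linear from 0) of 6 genes in each sample on the x axis, stacked by annotated transcript type. CASP1 and MLKL are mostly protein-coding, CASP4 has 61.1% to 69.1% of its mean in retained-intron forms, and the protein-coding share of CASP8 is low in NC sample 2.

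Among the 9 other caspase and caspase-like genes reported here, 5 were tested, CARD16 and CARD17 were higher by limma adjusted p (CARD17 with the limit given above), and none was lower. CASP2 gave a log2 fold change of -0.24 (adjusted p = 0.0774) and CASP9, the initiator of the apoptosome, of -0.29 (adjusted p = 0.465). CASP14, a caspase of cornifying skin, was below 0.5 FPKM in every sample.

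Of 6 other gasdermins and membrane rupture genes, 4 were tested and 1 was lower. PJVK, the gasdermin relative mutated in hearing loss, had 1.32, 1.97 and 2.01 FPKM in OV-BRCA1 and 2.98, 3.20 and 2.78 in NC (log2 fold change -0.54, limma adjusted p = 0.0195). The groups were separate at this low level. GSDME, a gasdermin cut during apoptosis, ranged from 6.86 to 9.50 FPKM in OV-BRCA1 and from 8.32 to 10.1 in NC. GSDMB gave a log2 fold change of -0.41 (adjusted p = 0.191), and NINJ1, which ruptures the membrane after the pores form, one of -0.47 (adjusted p = 0.0858). GSDMA and GSDMC stayed below 0.21 FPKM. None of these 4 had a higher call, and the higher call of GSDMD was lost under the settings named above.

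**Figure D4:**
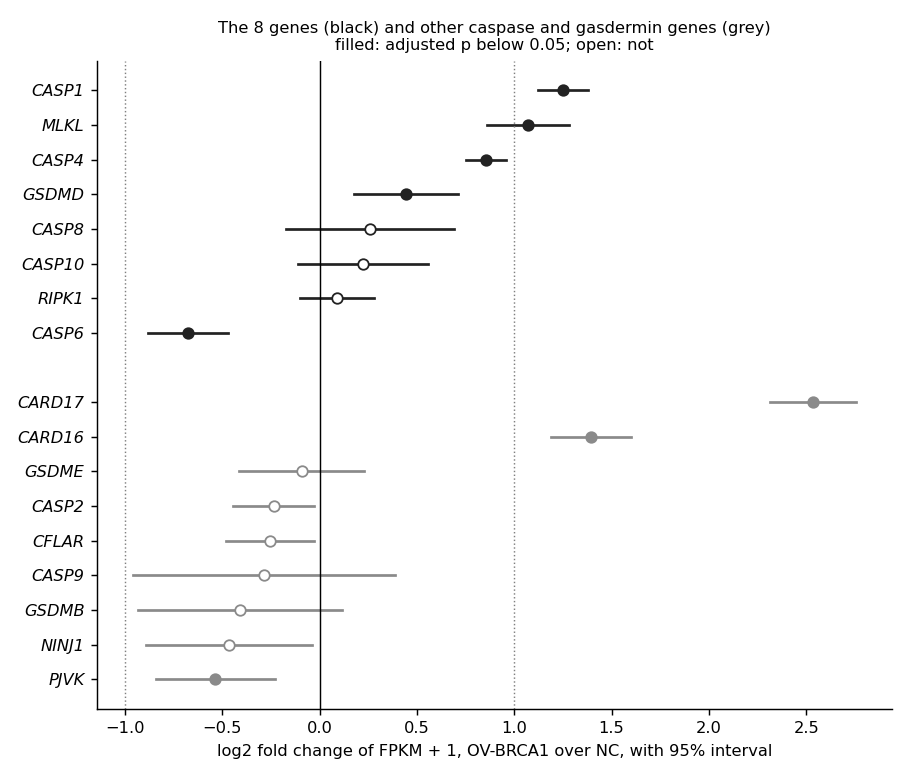
Log2 fold change of FPKM + 1, OV-BRCA1 over NC (x axis, dotted lines at -1 and 1), of the 8 genes and of the other caspase and gasdermin genes tested (y axis), with 95% intervals. Filled points passed an adjusted p of 0.05; CASP1, MLKL, CARD16 and CARD17 lie beyond 1, and CARD17 passed the filter only through OV-BRCA1.

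Inflammasome genes gave 3 higher and 2 lower of 9 tested among 15, with a median log2 fold change of -0.08. AIM2, a sensor of cytosolic DNA, had 6.64, 5.48 and 6.59 FPKM in OV-BRCA1 samples 1 to 3 and 0.28, 0 and 0.24 in NC samples 1 to 3. It was near 0 in NC and present in every OV-BRCA1 sample (log2 fold change 2.63), and like CARD17 it passed the filter only through the OV-BRCA1 samples, so no p is given and its place in the count above supports nothing. IL1B, a cytokine that CASP1 matures, had 2.48, 2.20 and 2.29 FPKM against 0.56, 0.61 and 0.97 (log2 fold change 0.96, adjusted p = 0.00158). NEK7, a partner of NLRP3, gave a log2 fold change of 0.43 (adjusted p = 0.00323), and NAIP, a sensor of bacterial flagellin, of -0.52 (adjusted p = 0.0246). The following genes were chosen after their values were seen. PYCARD, the adaptor that joins sensors to CASP1, had 3.25, 2.88 and 3.10 FPKM against 3.70, 4.35 and 3.97 (log2 fold change -0.30, adjusted p = 0.04). IL18, the other cytokine substrate, ranged from 56.6 to 81.3 FPKM in OV-BRCA1 and from 61.5 to 85.3 in NC, and NLRP3 and NLRP1 reached at most 0.071 FPKM.

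Necroptosis partners gave 3 higher and 3 lower of 8 tested among 10, with a median log2 fold change of -0.13. RIPK3, the kinase that phosphorylates MLKL, and ZBP1, a sensor that engages it, were listed at 0 in all 6 samples; they too were singled out after their values were seen. MLKL was thus higher in a line in which no RIPK3 transcript was recorded. TICAM1, an adaptor of toll-like receptors, gave a log2 fold change of 0.37 (limma adjusted p = 0.0143) and PELI1, a ubiquitin ligase, one of 0.33 (adjusted p = 0.0242). CHMP2A and CHMP4B, subunits of the complex that repairs damaged membrane, had log2 fold changes of -0.67 (adjusted p = 0.00143) and -0.31 (adjusted p = 0.00302).

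Death receptors and adaptors gave 4 higher and 1 lower of 9 tested among 11, with a median of 0.33. TNFSF10, the ligand TRAIL, had 31.0, 32.7 and 32.6 FPKM in OV-BRCA1 and 5.92, 5.64 and 5.37 in NC, and its groups were widely separate (log2 fold change 2.32, SE 0.062, limma adjusted p = 4.63e-06). TNFRSF10A, a receptor of that ligand, had 10.3, 10.7 and 11.8 FPKM against 4.34, 3.74 and 4.13 (log2 fold change 1.23, adjusted p = 0.000176). TNFRSF21, another death receptor, gave a log2 fold change of 1.79 (adjusted p = 1.58e-05), and TRADD, an adaptor of the TNF receptor, of -0.49 (adjusted p = 0.00331).

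Regulators of RIPK1 gave 7 higher and 1 lower of 23 tested, with a median of 0.24. BIRC3, a ubiquitin ligase for RIPK1, had 13.1, 15.0 and 16.5 FPKM in OV-BRCA1 and 1.21, 1.81 and 1.67 in NC. Its groups were separate (log2 fold change 2.63, limma adjusted p = 4.61e-05). TNFAIP3, which edits ubiquitin chains, and its partner TNIP1 had log2 fold changes of 0.76 (adjusted p = 0.000656) and 0.89 (adjusted p = 0.00142), and RBCK1, of the linear ubiquitin ligase, one of 0.59 (adjusted p = 0.00177). The 1 lower call was SHARPIN, named in addition after its value was seen (log2 fold change -0.44, adjusted p = 0.00286). RIPK1 itself did not pass.

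The mitochondrial arm gave 5 higher and 2 lower of 12 tested among 13, with a median of 0.21. PMAIP1, a promoter of apoptosis, had 12.0, 23.8 and 25.3 FPKM in OV-BRCA1 and 3.97, 2.18 and 7.58 in NC (log2 fold change 1.99, limma adjusted p = 0.0134). BCL2L1, an inhibitor of apoptosis, had 107, 102 and 109 FPKM against 58.0, 59.1 and 56.6 (log2 fold change 0.86, adjusted p = 7.24e-05). BAX, a pore former of mitochondria, gave a log2 fold change of -0.54 (adjusted p = 0.00305) and CYCS, the cytochrome released there, of 0.36 (adjusted p = 0.00366). The higher calls named thus include a promoter and an inhibitor of apoptosis.

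Caspase substrates of apoptosis gave 1 higher and 3 lower of 9 tested among 10, with a median of 0.07. PANX1, a channel opened by executioner caspases, had 16.0, 14.9 and 16.6 FPKM in OV-BRCA1 and 7.35, 7.12 and 7.26 in NC, with separate groups (log2 fold change 1.03, limma adjusted p = 0.000129). ACIN1, LMNA, the substrate of CASP6, and LMNB1 had log2 fold changes of -0.75 (adjusted p = 0.00713), -0.40 (adjusted p = 0.00974) and -0.44 (adjusted p = 0.0328). Over the 8 lists together, 25 of 79 tested genes were higher (31.6%) and 13 lower (16.5%), with a median of 0.12. Over all genes tested, the shares were 16.4% and 18.9%. The higher genes of the lists include AIM2 and CARD17, which passed the filter only through OV-BRCA1. Nothing is therefore read from the shares of the lists beside those of all genes.

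**Figure D5:**
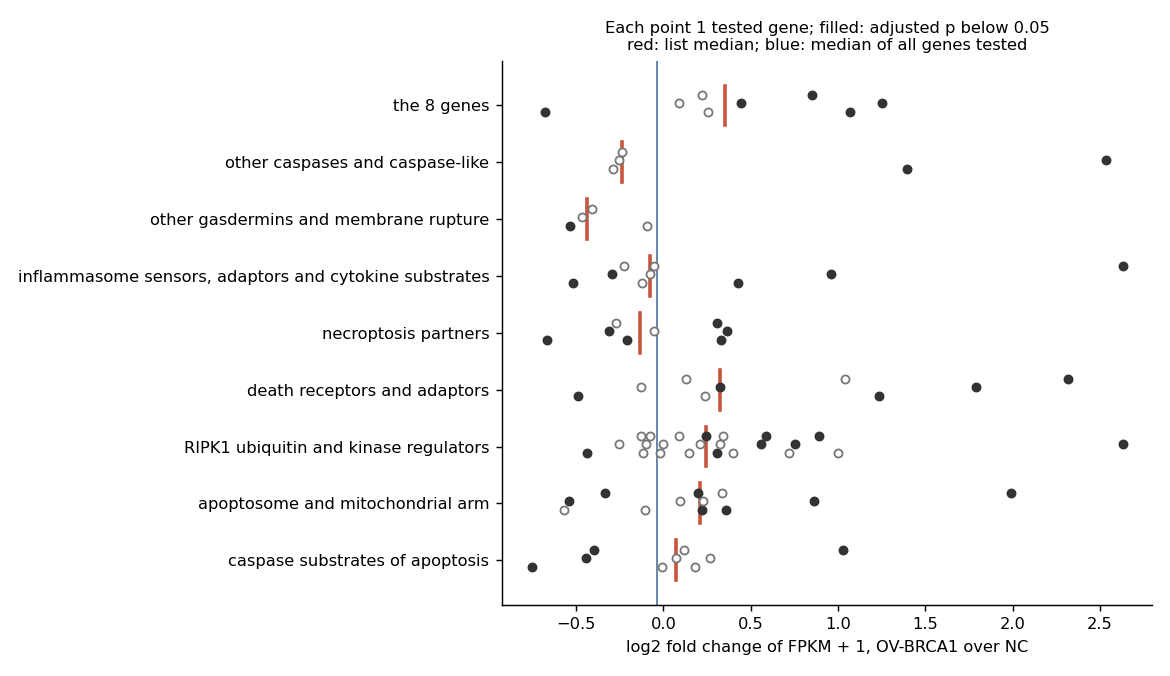
Log2 fold change of FPKM + 1, OV-BRCA1 over NC (x axis), of every tested gene of the 8 genes described and of each gene list as reported here (y axis), with list medians in red and the median of all genes (-0.04) in blue. The highest values in their lists are CARD17, AIM2, TNFSF10, BIRC3 and PMAIP1.

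Markers of other cell types were measured beside these results. Of 9 leukocyte markers, 7 were below 0.5 FPKM in every sample, among them PTPRC and LCP2 at 0. The exceptions were CD68 and CD14. CD68, the more abundant in OV-BRCA1, had 22.2, 27.3 and 29.4 FPKM there and 3.38, 4.17 and 2.74 in NC (log2 fold change 2.63, limma adjusted p = 9.75e-05). CD14, the more abundant in NC, had 9.04, 6.65 and 7.69 against 20.4, 17.8 and 19.9 (log2 fold change -1.22, adjusted p = 0.000594). The summed level of the 9 markers was 31.5, 34.1 and 37.4 FPKM in OV-BRCA1 and 24.1, 22.2 and 23.0 in NC. CD68 moved with CASP1, CD14 moved against it, and the defining marker PTPRC was at 0. Of 8 fibroblast markers, 6 were below 0.5 FPKM, LUM was at 0, and the sum, led by COL1A1, was 5.95, 5.45 and 6.03 FPKM against 8.50, 8.77 and 7.55. COL1A1 was lower (log2 fold change -0.79, limma adjusted p = 0.00106). FAP, the other fibroblast marker above 0.5 FPKM, had 2.55, 2.24 and 2.10 FPKM against 1.77, 2.05 and 1.35, separate in the opposite direction to the sum. FAP did not pass the test (adjusted p = 0.124). Of 6 endothelial markers, 4 were below 0.5 FPKM, VWF and KDR were at 0, and the sum, led by PECAM1, was 1.20, 1.89 and 1.62 FPKM against 1.08, 1.09 and 0.91. The epithelial sum was 3493, 3332 and 3405 FPKM in OV-BRCA1 and 3809, 3719 and 3843 in NC. Of 8 epithelial markers tested, KRT17 was lower (log2 fold change -0.48, limma adjusted p = 0.00263), and KRT8 (0.20, adjusted p = 0.0282), KRT18 (0.39, adjusted p = 0.000976) and EPCAM (1.12, adjusted p = 0.00142) were higher, as was KRT6A, which passed the filter only through OV-BRCA1; the sum and most of these calls thus differ in direction. The study's list of genes lower with BRCA1 holds KRT17, CD14 and COL1A1, called lower here, and also KRT8, called higher here. That list came from another test (DESeq) with an absolute log2 fold change above 1. The part of all these markers in the results was not tested.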

How the data were processed

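FPKM values per transcript were made and deposited by the authors for 3 OV-BRCA1 and 3 NC samples, after removal of adapter, unknown-base and low-quality reads. The submitters' processing notes name FastQC and HISAT2; the quantification tool and the use of strand are not given in the sources used here. The series table held 199167 transcripts, and the 6 sample files hold the same values. Only 30.8% to 39.2% of low values lay within 0.1 of a whole fragment, so whole reads were not recovered; read totals of the libraries given by the study were not used here.

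FPKM was summed per gene with GENCODE release 29 names and tested on log2(FPKM + 1), two-sided, with limma 3.58.1 (R 4.3.3; trend) for genes of at least 0.5 FPKM in at least 3 samples, with Benjamini-Hochberg adjustment over 16321 genes. An exact permutation test of 3 against 3 cannot go below p = 0.1 and was not used. The test was checked on simulated data. The 8 genes, the 8 pathway lists, the 4 marker lists and the motifs were chosen with earlier results of these data known. Named were the 8 genes, BRCA1, GAPDH, the other caspases and gasdermins listed, up to 4 called genes with the largest fold change of each other list, nearest profiles of genes past the study's limits, and overlapping genes; exceptions are stated. Some genes covered by the lists are not reported here and were left out of the list counts, medians and figures, which can differ from those of the full lists in size and sign. Alternatives were another pseudocount, filter, scaling, transcript choice or model, a replicate block and each sample left out; a length-weighted sum and GSDMD without GSDMD-204 were added after seeing the data. Tables and figures used Python 3.11.15, numpy 2.4.6, pandas 2.3.3 and matplotlib 3.10.9.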

Additional observations from a re-analysis of the deposited data

How the results depend on the processing

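Of 13 results, 8 kept their direction and their side of the threshold in every alternative, among them CASP1, CASP4, MLKL, CASP8, CASP10, RIPK1 and BRCA1, and no result reversed. The log2 fold change ranged from 1.22 to 1.33 for CASP1, 0.74 to 1.09 for CASP4, 1.02 to 1.17 for MLKL and 0.80 to 1.13 for BRCA1; CASP4 passed the fold limit with protein-coding transcripts only. For the genes without a call it ranged from 0.08 to 1.39 for CASP8, 0.09 to 0.33 for CASP10 and 0.02 to 0.14 for RIPK1. Without NC sample 2 the values were 0.08, 0.09 and 0.02, and the highest CASP8 value came with the most abundant transcript (adjusted p = 0.564, range 0.161 to 0.693). The number of genes past adjusted p and fold limits was 651 and became 1280 with a pseudocount of 0.1. The number past adjusted p was 5764 and became 3694 with protein-coding transcripts only and 3291 with the most abundant transcript; fewer genes were tested in both. With protein-coding transcripts only, 3 of the 8 genes passed adjusted p in place of 5, and CASP6 was lost (-0.41).

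GSDMD lost its call with no filter (0.44, adjusted p = 0.0599), protein-coding transcripts only (0.58, adjusted p = 0.0707), the most abundant transcript (0.26, adjusted p = 0.575), the length-weighted sum (0.19, adjusted p = 0.147) and without GSDMD-204 (0.19, adjusted p = 0.342); the last 2 were chosen after seeing the data. With samples left out in turn its log2 fold change ranged from 0.36 to 0.57. The cause of these losses was not tested, except that leaving out a sample leaves fewer samples and that the value without GSDMD-204 lacks that transcript by construction.

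Same-numbered samples did not deviate together (correlations -0.024, 0.025 and 0.014), and not every sample correlated best with its own number. Whether same-numbered samples were handled together is not given, and these correlations cannot show it. With the replicate block, 646 genes passed both limits, 4595 passed adjusted p, and 5 of the 8 genes did. Fragments per gene were not recovered, so no counting error is given for low values such as CASP10.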
